A study of Drosophila melanogaster with 5 samples.

Results

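Rbfox1, bru1, mub and ps are RNA-binding protein genes that regulate splicing, and each carried at least 1 called peak of MLE (Maleless) in Drosophila melanogaster female embryos. Their peaks were all those overlapping the dm6 extent of a gene widened by 500 bp on both sides. This gave 20 of the 4422 peaks in 5 lists, which merged into 10 of 2263 regions when peaks sharing at least 1 bp were joined. The 4 genes were picked because they had peaks, so the presence of peaks in them is a description and was not tested.

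MLE was mapped by CUT&RUN: permeabilised embryos were treated with a rat antibody to MLE, micrococcal nuclease tethered to it cut the DNA nearby, and the freed pieces were sequenced as paired reads. The control mothers carried the germline driver MTD-GAL4 and GFPRNAi. Their embryos gave 2 libraries at 0-2 h, ahead of the maternal-to-zygotic transition in which the embryo's own genome takes over from maternal products, and 2 libraries at 2-4 h, once it had passed. The fifth library came from 0-2 h embryos of mothers with MTD-GAL4 and the line UAS-CLAMPRNAi[val22], which depletes maternal CLAMP, a DNA-binding protein with a preference for GA repeats. In every group the crosses used the meiotic drive stocks SD72/CyO and SPSD/CyO to obtain X-bearing sperm, so all embryos were female by design. Several crosses and timed egg-layings were used, and nothing says which of them went into which library. The lists do not measure RNA, so neither the loss of CLAMP nor the expression of the 4 genes was checked, and a library without the antibody was not used here.

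MLE is an RNA helicase best known from the dosage compensation complex of male flies, and it was also linked to splicing through a mutant allele that disturbs the transcripts of the sodium channel gene para. Rbfox1 encodes the fly member of the Rbfox family, which controls alternative exons in neurons and muscle, and in the fly ovary its cytoplasmic form represses pum. bru1 (also called aret or bruno) encodes a CELF family protein that represses translation of osk in the oocyte and sets the splicing programme of flight muscle. mub encodes a KH-domain protein related to the vertebrate poly(C)-binding proteins and is named for its expression in the mushroom bodies of the brain. ps (pasilla) encodes the KH-domain relative of the mammalian Nova proteins, which direct neuron-specific splicing. For bru1 the known roles lie mainly in germ line and muscle. Embryos of these ages have not yet formed neurons.

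The 4 genes are autosomal and long. Rbfox1 spans 3L:10481412-10594012 (112.6 kb), bru1 spans 2L:12175004-12313438 (138.4 kb), mub spans 3L:21844788-21932702 (87.9 kb) and ps spans 3R:9417940-9455500 (37.6 kb). RefSeq lists 9, 11, 12 and 18 transcripts for them in that order. Among 11645 protein-coding genes on 2L, 2R, 3L and 3R, bru1 ranked 21st, Rbfox1 53rd, mub 87th and ps 394th by length. The gene table gave neither strand nor exons, so positions are distances from the gene end with the lower or higher coordinate, and a peak could not be placed in an exon, an intron or a promoter. None of the 20 peaks overlapped the extent of another annotated gene, coding or non-coding.

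The lists differed in ways that bear on these genes. They held 723 and 1247 peaks for 0-2 h controls (replicates 1 and 2), 370 and 1589 for 2-4 h controls and 493 for clampRNAi. Median peak width was 81 to 110 bp in 4 of them and 2190 bp in 2-4 h replicate 2. The lowest total signal of a listed peak, the authors' summed coverage, was 10424 and 5960 at 0-2 h, 13050 and 18175 at 2-4 h and 6840 for clampRNAi. Sequencing depth is unknown, so a peak missing from a list was not called there, which does not show that MLE was absent. Signal was used to rank peaks within 1 list, as the percentile of peaks with at most that total signal.

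In the 4 genes together, replicates 1 and 2 gave 3 and 9 peaks at 0-2 h and 1 and 5 at 2-4 h, and clampRNAi gave 2. These were 0.415% and 0.722% of the peaks in the 0-2 h lists, 0.270% and 0.315% in the 2-4 h lists and 0.406% for clampRNAi. By count the replicates 2 were higher at both ages, and their lists were also the longer ones. Without 0-2 h replicate 2 the 20 peaks became 11. At least 1 peak was found in 3 and 4 of the 4 genes at 0-2 h, in 1 and 3 at 2-4 h, and in 2 after clampRNAi. Of all 13922 protein-coding genes on the main arms, 2.77% and 4.55% had a peak at 0-2 h, 1.67% and 6.38% at 2-4 h, and 2.07% in the clampRNAi list. Long genes had peaks far more often. Of the 394 protein-coding genes on 2L, 2R, 3L and 3R at least as long as ps, 23.9% and 35.5% had a peak at 0-2 h, 12.4% and 34.5% at 2-4 h, and 18.8% after clampRNAi. In at least 1 library the share was 8.37% of all coding genes and 49.2% of the long ones. In both 0-2 h controls it was 2.38% and 22.1%, where 3 of the 4 genes (Rbfox1, bru1 and mub) had a peak. In all 5 libraries it was 1.31% and 10.9%, where 1 of the 4 (Rbfox1) did. The genes were chosen by their peaks, so nothing is read from their higher share.

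**Figure D1:**
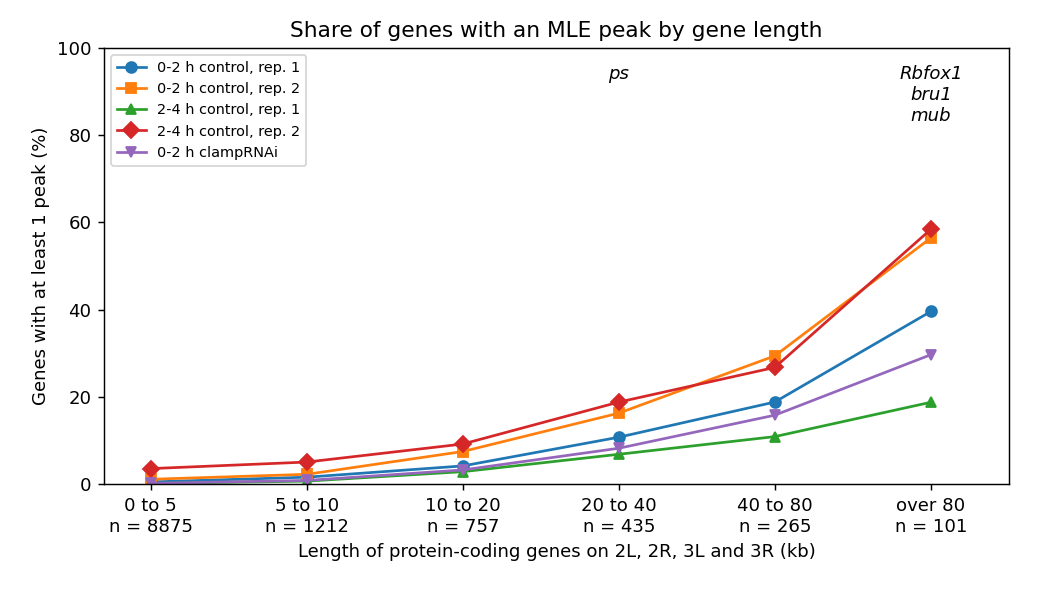
Share of protein-coding genes on 2L, 2R, 3L and 3R with at least 1 MLE peak (y axis, percent) by gene length in kb (x axis), with 1 line per library and the number of genes under each class. The class holding each of the 4 genes is named at the top, and in 0-2 h replicate 2 the share ran from 1.17% of genes up to 5 kb to 56.4% of genes over 80 kb.

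Per length of gene, the 4 genes held 0.797 and 2.39 peaks per 100 kb at 0-2 h, 0.266 and 1.33 at 2-4 h, and 0.531 after clampRNAi. The 394 long genes, which include these 4, held 0.415 and 0.757, then 0.204 and 0.737, then 0.316. The value of the 4 genes in 2-4 h replicate 1 and after clampRNAi rested on 1 and 2 peaks. As the 4 genes were chosen by their peaks, nothing is read from their higher density in any library.

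The regions fell into 2 kinds that followed the libraries. Regions in Rbfox1, bru1 and the lower end of mub were called in both 0-2 h controls, at low to middle rank. Regions in ps and at the upper end of mub were called in both replicates 2, at high rank, and in no other library. The other 3 regions were each called in 1 library. No region of the 4 genes was called in all 5 libraries, against 244 of 1742 regions on the main arms.

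**Figure D2:**
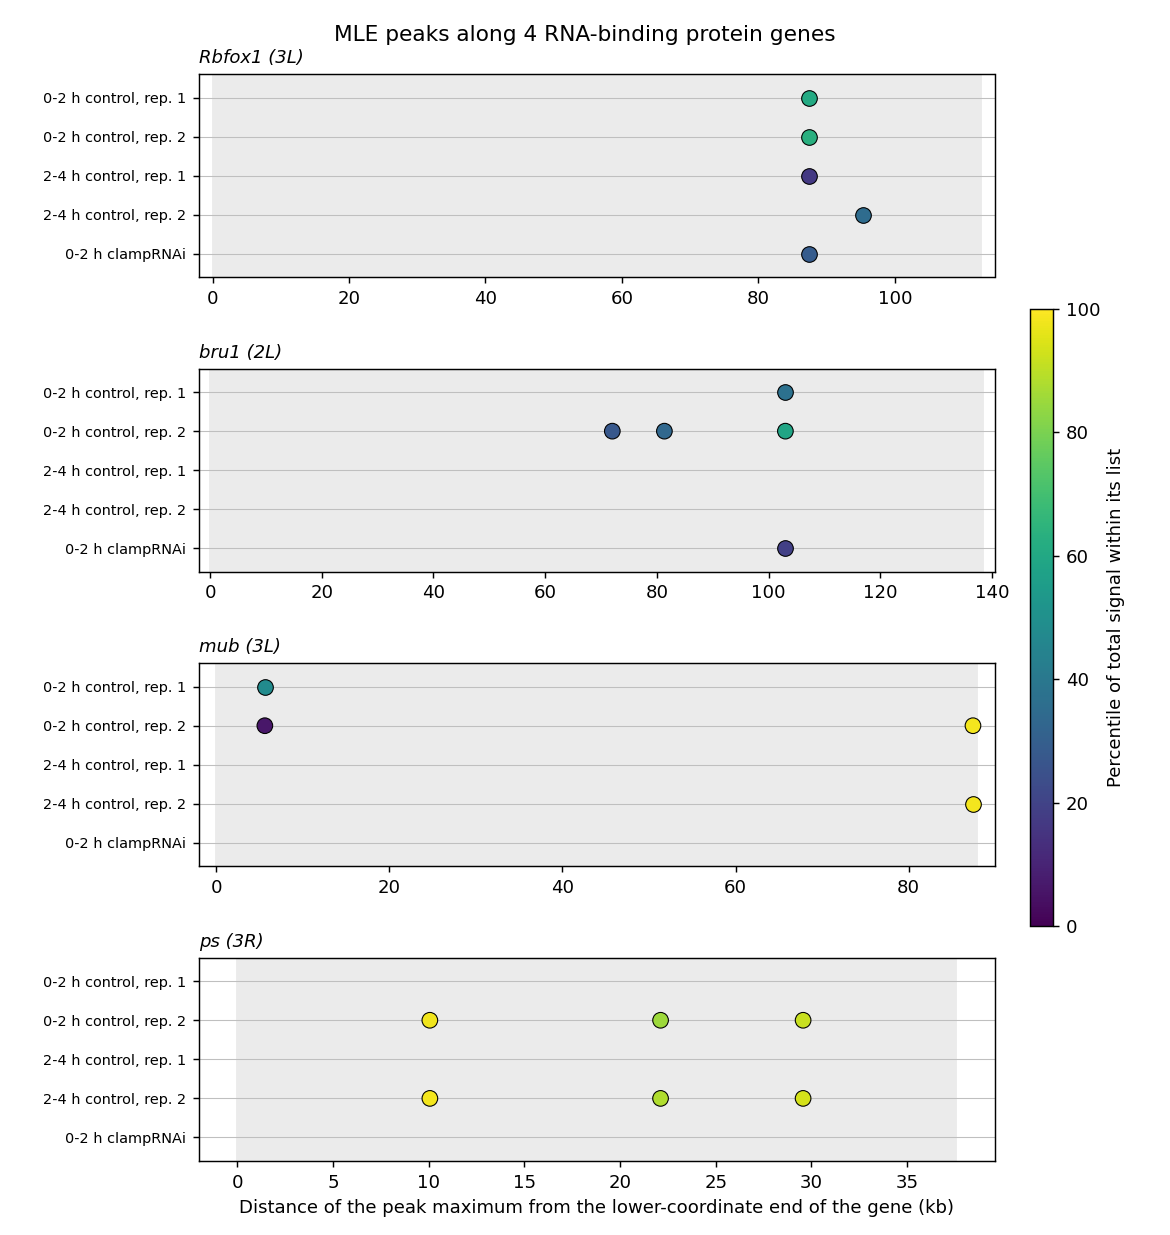
Position of each peak's maximum along the gene (x axis, kb from the lower-coordinate end, gene extent in grey), with 1 row per library and the colour giving the percentile of total signal within that library's list. The Rbfox1 maximum at 87.5 kb appears in 4 rows, while the ps maxima appear in the rows of both replicates 2 alone.

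Rbfox1 had 1 peak in every library, and in 4 of them it was the same peak. In 0-2 h replicate 1 it spanned 3L:10568857-10569511 (655 bp) with a total signal of 26911 and a maximum of 713, at a percentile of 60.6. In 0-2 h replicate 2 it spanned 3L:10568753-10568937 (185 bp) with a total of 27764 and a maximum of 761, at 63.0. These controls placed it slightly above the middle of their lists.

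In 2-4 h replicate 1 the Rbfox1 peak spanned 3L:10568862-10568929 (68 bp) with a total of 15804 and a maximum of 439, at a percentile of 16.8. After clampRNAi it spanned 3L:10568862-10569062 (201 bp) with a total of 9645 and a maximum of 262, at 28.8. It was therefore called in the clampRNAi library and at both ages. Its maximum lay at 10568887 or 10568888 in all 4 libraries, 25.1 kb from the upper end of the gene. These 4 libraries, without 2-4 h replicate 2, called 4.08% of regions on the main arms.

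The Rbfox1 peak of 2-4 h replicate 2 was another one. It spanned 3L:10576532-10579123 (2592 bp), with its maximum at 10576799, and had a total of 24588, a maximum of 22 and a percentile of 35.1. It was broad and low like most of that list, whose median maximum signal was 53. The narrow Rbfox1 peak was not called there. The broad region was called in 2-4 h replicate 2 only, as were 35.5% of regions on the main arms.

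bru1 had peaks at 0-2 h and none in either 2-4 h control. The peak shared by the 0-2 h libraries spanned 2L:12277979-12278034 (56 bp) in replicate 1, with a total signal of 16161, a maximum of 437 and a percentile of 37.2. In replicate 2 it spanned 2L:12277966-12278163 (198 bp), with 22472, 590 and a percentile of 58.8. After clampRNAi it spanned 2L:12277984-12278033 (50 bp), with 8816, 238 and a percentile of 18.9. The peak was thus called in all 3 libraries of 0-2 h embryos, with maxima within 4 bp of each other, 35.4 kb from the upper end of the gene. The same 3 libraries and no other called 4.42% of regions on the main arms.

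In 0-2 h replicate 2 alone, bru1 had 2 further peaks nearer the middle of the gene. The peak at 2L:12246887-12247086 (200 bp) had a total signal of 9410 and a percentile of 27.1, and the peak at 2L:12256312-12256379 (68 bp) had 10628 and 33.5. Of regions on the main arms, 19.5% were called in 0-2 h replicate 2 only. With 3 peaks in that library bru1 and ps were among 18 of the 394 long genes with at least 3 (4.57%). In 2-4 h replicate 2, where ps again had 3, the share was 2.79%.

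mub had a region near each of its ends, and the 2 regions behaved differently. The lower one, 5.62 kb inside the gene, spanned 3L:21850385-21850433 (49 bp) with the same first and last base in both 0-2 h controls. Its total signal was 20045 in replicate 1 and 6558 in replicate 2, and its percentile was 48.0 and 6.09. In replicate 2 it was close to the lowest listed total, and it was not called at 2-4 h or after clampRNAi. Calls in both 0-2 h controls and no other library were found for 4.71% of regions on the main arms.

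The upper mub region had its maximum 0.485 to 0.486 kb inside the other end of the gene. In 0-2 h replicate 2 it spanned 3L:21932179-21932282 (104 bp), with a total signal of 2039602 and a maximum of 27247, and ranked 22nd from the top at a percentile of 98.3. In 2-4 h replicate 2 it spanned 3L:21932177-21932282 (106 bp), with a total of 2000155 and a maximum of 26737, and ranked 27th at 98.4. Its total was 126 times the median peak of the first list and 63.8 times that of the second. Yet it was in neither replicate 1 and not in the clampRNAi list, so its calls divided the controls by replicate number and not by stage.

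ps had 3 regions, each called in both replicates 2 and in none of the other 3 libraries. The first, 10.1 kb from the lower end of the gene, spanned 3R:9427945-9428045 (101 bp) in 0-2 h replicate 2, with a total signal of 1554804, a maximum of 24019 and a percentile of 97.7. In 2-4 h replicate 2 it spanned 3R:9427836-9429322 (1487 bp), with 1837453, 29397 and 98.2. It was the strongest ps region in both lists, ranking 30th from the top in each.

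The second ps region, 22.1 kb from the lower end, spanned 3R:9440024-9440083 (60 bp) in 0-2 h replicate 2, with a total signal of 108857 and a percentile of 85.3. In 2-4 h replicate 2 it spanned 3R:9439659-9440476 (818 bp), with 144256 and 88.2. The third, 29.6 kb from the lower end, spanned 3R:9447469-9447555 (87 bp) in 0-2 h replicate 2, with 267101 and 91.5. In 2-4 h replicate 2 it spanned 3R:9447474-9447555 (82 bp), with 272280 and 93.4. The order of the ps regions by signal was the same in both libraries, with the first highest and the second lowest.

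The nearest peak above ps had the same pair of libraries and lay outside the 500 bp limit, 7.19 kb from the gene at a percentile of 82.9 in 0-2 h replicate 2 and 7.11 kb away at 84.0 in 2-4 h replicate 2. The closest listed peak outside any of the 4 windows was 3.42 kb below mub in 2-4 h replicate 2, at a percentile of 5.85. The member closest to a limit was the upper mub peak, inside the gene itself.

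**Figure D3:**
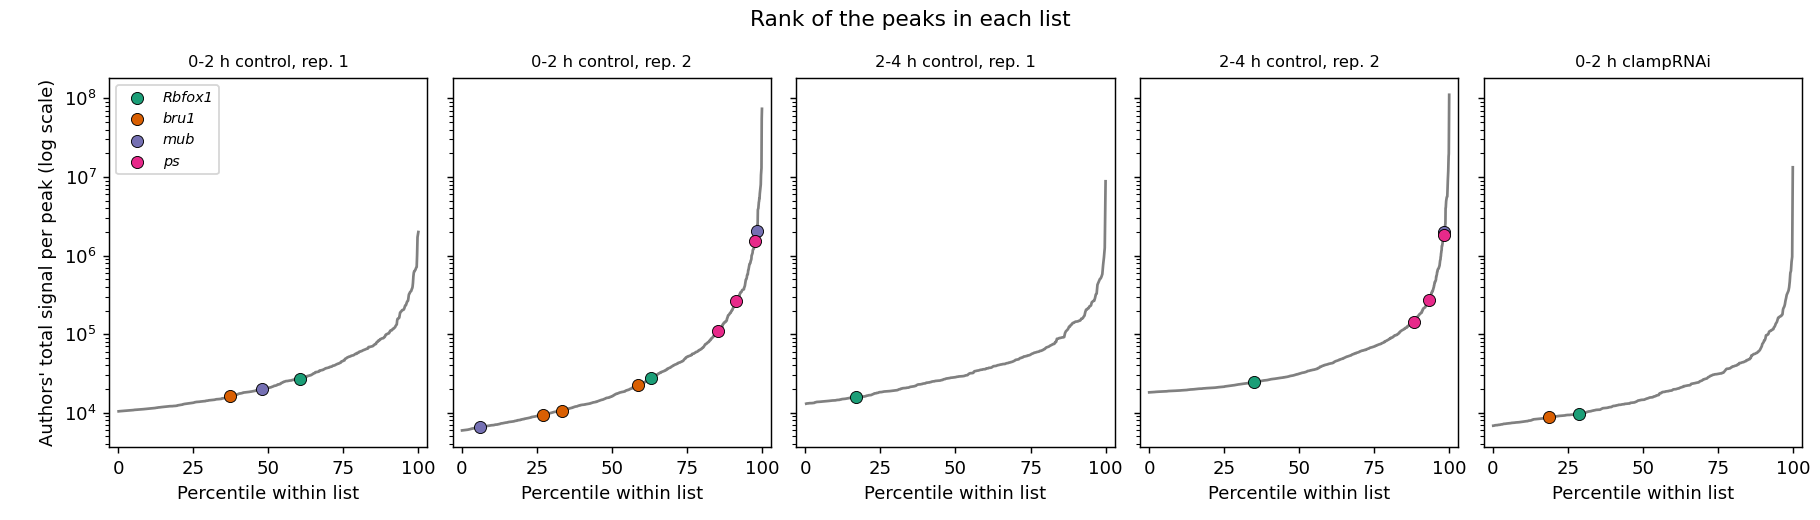
Total signal per peak as the authors gave it (y axis, log scale, not comparable between lists) against percentile within the list (x axis), with every peak of a list as a grey line and the peaks of the 4 genes as coloured points. In both replicates 2 the ps points and the upper mub point sit between percentiles 85.3 and 98.4, while the points of Rbfox1, bru1 and the lower mub region stay at or below 63.0 in every list.

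On the main arms, 196 of 1742 regions (11.3%) were called in both replicates 2 and no other library, and 4 of the 10 regions studied here were among them. The 196 ranked high as a group, with median percentiles of 78.8 at 0-2 h and 76.0 at 2-4 h. The mub and ps regions lay above those medians, and 80 and 77 of the 196 ranked at least as high as the lowest of the 4. X held 35.7% of the 196 regions. Counted by peaks and not by regions, it held 44.7% (0-2 h) and 31.2% (2-4 h) of the main-arm lists of the replicates 2. Stage and clampRNAi cannot be read from the 4 regions, since each was called in 1 of the 2 replicates at both ages and the clampRNAi embryos gave 1 library.

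For maternal CLAMP, the comparison rested on the regions called in both 0-2 h controls. These were 3, in Rbfox1, bru1 and the lower end of mub, and those in Rbfox1 and bru1 were called after clampRNAi (2 of 3, 66.7%, Clopper-Pearson 95% interval 9.43% to 99.2%, which covers counting error over regions only). Over all 602 such regions 76.6% were called, and over the 512 of them on the main arms 80.7%. For stage, 1 of the 3 was called in a 2-4 h control, the Rbfox1 region (33.3%, 0.840% to 90.6%). The share was 72.6% of the 602 and 68.9% of the 512 on the main arms. Without 0-2 h replicate 1 the base grew to 9 regions, of which 2 were called after clampRNAi (22.2%, against 38.5% of all 1221 such regions) and 5 in a 2-4 h control (55.6%, against 56.8%). Without 2-4 h replicate 1, 0 of the 3 were called at 2-4 h, against 60.6% of the 602. With 3 regions the intervals contain nearly any share, so they cannot decide whether these genes differ from all regions. The 3 regions are also part of the 602, and no difference between conditions was tested.

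The peaks were narrow and kept their shape between libraries. Of the 20, 12 were narrower than the read length of 150 bp, as were 56.7% and 56.8% of all peaks in the 0-2 h lists, 70.8% and 6.86% in the 2-4 h lists and 67.1% after clampRNAi. Total divided by maximum signal gives the width of a block of uniform signal with the same height and total. For the shared Rbfox1 peak it was 37.7 and 36.5 bp at 0-2 h, 36.0 bp in 2-4 h replicate 1 and 36.8 bp after clampRNAi. The called width of that peak ran from 68 to 655 bp. For the shared bru1 peak the ratio was 37.0 and 38.1 bp in the controls and 37.0 bp after clampRNAi. For the lower mub peak it was 31.7 and 32.0 bp.

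The regions of the replicates 2 were broader in this measure and as constant. The upper mub region gave 74.9 and 74.8 bp. The ps regions gave 64.7 and 62.5 bp, 44.4 and 44.4 bp, and 60.1 and 59.2 bp. The first and second ps regions kept these values although their peaks in 2-4 h replicate 2 were called at 1487 bp and 818 bp. The median width in that list was 2190 bp. The ratio thus did not follow the called width. The Rbfox1 peak of 2-4 h replicate 2 alone was broad in this sense, at 1118 bp, in a list with a median of 787 bp.

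By median, this constancy also held over main-arm regions in the pairs of libraries compared here, but single regions departed from it. Between 0-2 h replicate 1 and 2 the larger value was a median of 1.02 times the smaller over 498 main-arm regions with 1 peak in each, and 1.03 times over the 3 studied here. Between the replicates 2 it was 1.04 times over 460 regions and 1.01 times over the 4 in mub and ps. The highest ratio of a main-arm region was 3.33 in the first pair and 8.38 in the second. The maxima were a median of 2 bp apart over these main-arm regions in both pairs, and at most 644 bp and 6488 bp apart. Within each shared region of the 4 genes they were at most 4 bp apart. An identical first or last base was found for 25.7% of the 498 regions and 15.9% of the 460, and for 1 of 3 and 2 of 4 in the genes studied.

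**Figure D4:**
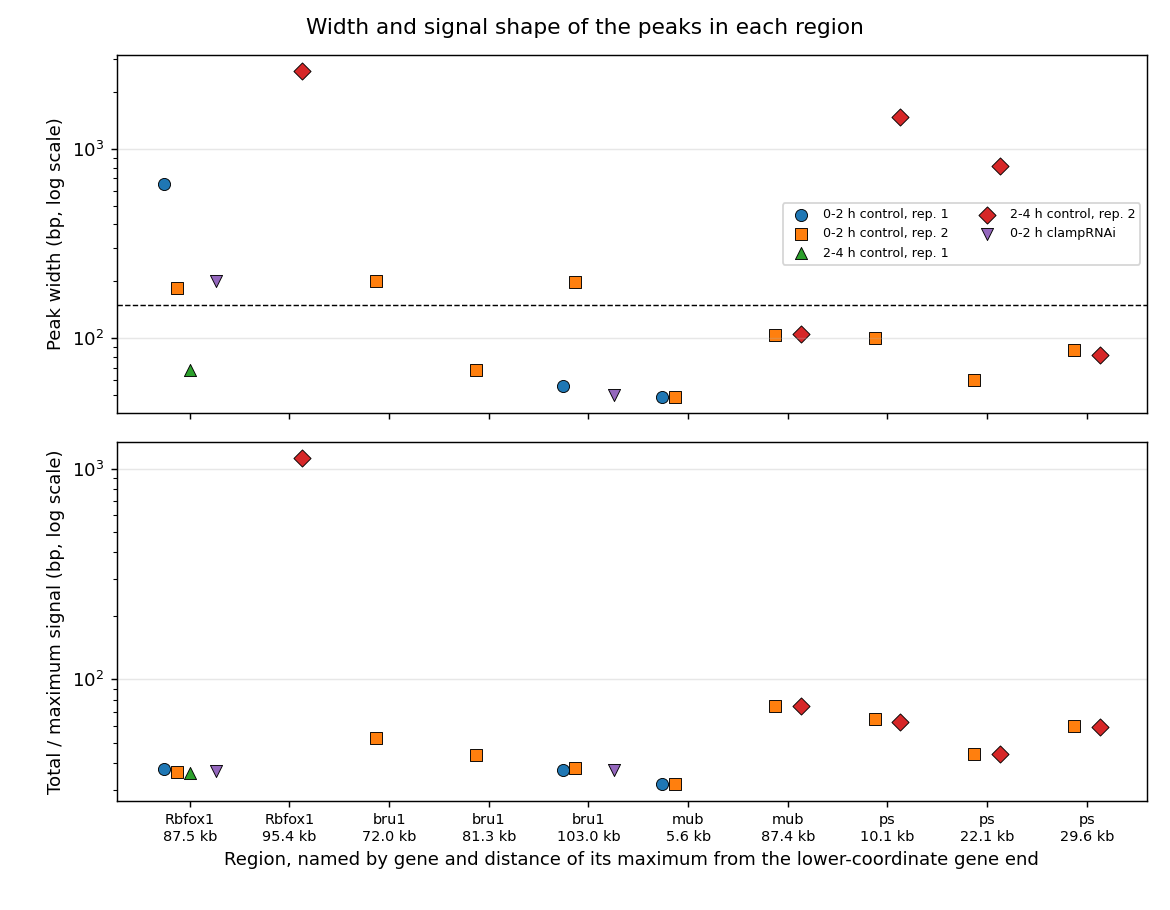
Called width (upper panel, bp, log scale, dashed line at the read length of 150 bp) and total divided by maximum signal (lower panel, bp, log scale) for every peak, grouped by region along the x axis with 1 marker shape per library. In the lower panel the markers of a region nearly coincide, as for Rbfox1 at 36.0 to 37.7 bp, while their called widths spread.

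Of 38 other genes for splicing factors and RNA-binding proteins, with a median length of 5.75 kb, 6 had a peak in at least 1 library (15.8%, against 8.37% of all protein-coding genes). The other 32, among them Sxl, tra and elav, had none. Long genes were also among these: shep (122 kb), sm (114 kb), msi (92.3 kb), Syp (54.0 kb) and bru2 (53.3 kb), another relative of bru1. By library 4 and 5 of the 38 had a peak at 0-2 h, 4 and 5 at 2-4 h, and 4 in the clampRNAi list. The 4 with a peak in all 5 libraries were bru3, a relative of bru1 (17 peaks over the lists), fne, of the ELAV family (11), heph, the polypyrimidine tract binding protein gene (6), and Imp, an RNA-localising KH-domain gene (5). mbl (muscleblind) had 1 peak in 0-2 h replicate 2, and Hrb98DE, an hnRNP A gene, 1 in 2-4 h replicate 2. bru3 and heph are 281 kb and 169 kb long and fne and Imp lie on X. Of all protein-coding genes, 1.31% had a peak in all 5 libraries.

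Another list held 10 muscle genes whose transcripts bru1 or Rbfox1 is known to splice, with a median length of 26.4 kb. In at least 1 library 5 of them had a peak. For comparison, 8.37% of all protein-coding genes did, and 49.2% of those at least as long as ps on 2L, 2R, 3L and 3R. Neither share matches this list in length and chromosome, since up and wupA lie on X and bt on chromosome 4. up (troponin T) and Zasp52 (a sarcomere Z-disc gene) had 1 in every library, while Tm1 (tropomyosin) had 1 in every library except 2-4 h replicate 2. wupA (troponin I) had peaks in the same 4 libraries as Tm1, with 2 in 0-2 h replicate 2, and sls (the titin-like gene) had 1 in 2-4 h replicate 2 alone. Among 5 ovary transcripts repressed by bru1 or Rbfox1, 2 had a peak in at least 1 library, read against the same shares. Of these pum, a translational repressor gene of 171 kb, had a peak in 4 libraries and osk in 2-4 h replicate 2 alone, while grk, CycA and Sxl had none. Of the genes over 80 kb on 2L, 2R, 3L and 3R, 18.8% to 58.4% had a peak, depending on the library. The mean percentile over libraries was 98.3 for up, 47.3 for Zasp52 and 17.1 for pum.

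The genes with the most similar numbers of peaks were found by the summed absolute difference over the 5 libraries, with ties broken by mean percentile. For Rbfox1, with 1 peak in each library, 82 genes had a difference of 0. The nearest in percentile were Dop2R, a dopamine receptor gene, CG17764 and Cdk7, which lie on X, unlike Rbfox1. CG17764 and Cdk7 had equal mean percentiles of 40.4, beside 40.9 for Rbfox1. For bru1 the nearest were Frq1 (on X), sr and side-VI, each at a difference of 1. For mub it was Eip78C, the only gene at 0, followed by sbm (on X) and Snap24 at 1. Eip78C had a mean percentile of 26.5 against 66.2 for mub. For ps it was lovit, with 3 peaks in each replicate 2 and none elsewhere, followed by AGO3 at 1 and zfh2 at 2. The lovit peaks had a mean percentile of 28.9 against 92.4 for ps, so those genes were alike in number of peaks and not in rank. The gene zfh2, on chromosome 4, was at 93.0.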

How the data were processed

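The authors deposited 1 peak list per library, 5 in all. Per the submitters' processing notes the tools were bcl2fastq 2.17, Trimmomatic 0.40, Bowtie2 2.4.4, SEACR 1.3 and deepTools with the dm6 assembly, without roles or order. Each deposited list gives a total and a maximum signal per peak as whole numbers, in SEACR's layout. The caller's threshold, its control track and whether spike-in yeast DNA set a scale were not given in the sources used here. Depth is unknown, and signal was compared only within a list.

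Gene extents came from a RefSeq table of Release 6 plus ISO1 MT, the assembly dm6 names. Positions are 1-based. Sequences were not examined. Analyses used Python 3.11.15, pandas 2.3.3, numpy 2.4.6, scipy 1.17.1 and matplotlib 3.10.9, with functions checked on simulated lists. Sample titles gave each library's group, and a replicate number for all but the clampRNAi library.

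No test between conditions was run: there were 2, 2 and 1 libraries, and peaks are not replicates. The 4 genes and all lists were chosen with earlier results of these data known. Genes named were the 4 members, up to 6 per list with peaks in the most libraries, and the 3 nearest in peak numbers to each member. Some list genes without a peak were named as well. Alternatives changed the gene window, the peak width, the list length, the overlap, the ranking and the libraries.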

Additional observations from a re-analysis of the deposited data

How the results depend on the processing

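The 20 peaks, the 10 regions, and the 2 and 1 of 3 regions called after clampRNAi and in a 2-4 h control did not change with the gene extent alone, with 2000 bp added on each side or with the midpoint of the maximum as position. With peaks of at least 200 bp there were 6 peaks in 5 regions, and 0 regions were called in both 0-2 h controls, so both counts were 0. With the 370 strongest peaks of each list there were 11 peaks in 5 regions, and both counts were again 0 of 0. With a reciprocal overlap of 50% there were 16 regions, because the same maximum was called at unequal widths, and both counts were 0 of 1. The median percentile of the 20 peaks, 59.7, was 69.9 by maximum signal, 58.7 by mean signal per base and 59.3 among main-arm peaks. With only peaks of at least 200 bp ranked, the median was 50.8 over the 6 peaks left. The 59.7 pools lists whose own medians for these genes ran from 16.8 to 93.4.

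Without 1 control library the peaks numbered 11 to 19, an alternative added after seeing the data. The lowest value was without 0-2 h replicate 2. The regions numbered 8 to 10, those called after clampRNAi 2 to 2, and those called in a 2-4 h control 0 to 5. Without 0-2 h replicate 1 the base was 9 regions in place of 3, so the share called after clampRNAi went from 66.7% to 22.2% and the 5 called in a 2-4 h control were 55.6%. The count of 0 was without 2-4 h replicate 1. No paired analysis was possible because none of these results comes from a test. By replicate number, the peaks of the 4 genes numbered 3 at 0-2 h and 1 at 2-4 h in replicate 1. In replicate 2 they numbered 9 and 5. Nothing shows that libraries with the same number shared a cross or egg-laying, so these counts are not paired changes with age. The lists also differed in length, with 723 and 370 peaks in the replicates 1 and 1247 and 1589 in the replicates 2. The unknown depth limits what a missing peak shows.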
